A study of Mus musculus with 17 samples.

Results

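The response of hematopoietic stem and progenitor cells of the mouse was examined 24 h after lipopolysaccharide (LPS) had been injected along with a blocking antibody to the receptor of interleukin-10 (IL-10R). These cells, abbreviated HSPC, are the immature marrow cells that give rise to blood. The 3 libraries titled as LPS with the anti-IL-10R antibody at 24 h were compared with the 5 libraries titled as PBS control at day 0, which makes 8 of the 17 libraries in the series. The 3 libraries titled as LPS alone at 24 h served as the nearest other group. All mice were wild-type C57BL/6J, injected intraperitoneally with LPS, with LPS and the blocking antibody, or with phosphate-buffered saline (PBS), and HSPC were sorted from their bone marrow by flow cytometry. Doses are uncertain: the series' design text states 5 micrograms (LPS) and 100 micrograms (antibody), but the protocol of the samples states these figures in milligrams. No library of mice given the antibody without LPS, or a control antibody, was analysed here. The sorting gate is not given in the sources used here, and neither is whether a library came from 1 mouse or a pool, so p-values measure the spread between these libraries only.

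LPS, a component of the outer membrane of Gram-negative bacteria, is sensed by the receptor TLR4 with its partners CD14 and MD-2, and signals through the adaptors MyD88 and TRIF to NF-kB and to the genes of type I interferon. IL-10 restrains that response: it binds a receptor built from the chains IL-10RA and IL-10RB, which act through the kinases JAK1 and TYK2 on the transcription factor STAT3. In bone marrow, HSPC under inflammation are known to leave quiescence and to favour the production of myeloid cells over lymphoid cells.

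Of 14920 genes tested, 3605 (24.2%) differed between LPS with antibody and PBS by edgeR's quasi-likelihood test at an adjusted p below 0.05. The called genes split into 1743 higher (11.7%) and 1862 lower (12.5%), and the median log2 change of all genes tested was -0.001. With upper-quartile scaling, which moved that median to -0.11, 1120 of 3448 called genes were higher (32.5% against 48.3%). Changes of at least 2-fold were mostly decreases, with 161 called genes higher and 1073 lower. The number of calls rested most on antibody library 2, without which 877 genes were called, and it was also reduced without PBS library 2 (2357) or PBS library 5 (2278). Total counts were 12989621 to 14634345 in the antibody libraries and 11879018 to 15597602 in the PBS libraries. Expression is given below as CPM, the count normalised to the size of the library. At this depth Clcf1 rested on 67, 67 and 75 reads in antibody libraries 1, 2 and 3. Mrc1, also described below, rested on 54, 7 and 21 reads there. Libraries are numbered as in the titles, and the labels do not say whether these numbers mark a day, batch or pool. The library name of antibody library 1 is written without brackets, like those of all PBS libraries and of library 1 of LPS alone. Those of antibody libraries 2 and 3 are written with brackets.

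Markers of HSPC were read first, as a check of the label. Kit, the stem cell factor receptor, was at 432, 275 and 259.5 CPM in antibody libraries 1, 2 and 3 and at 407, 347, 426, 332 and 482 CPM in PBS libraries 1 to 5 (log2 change -0.31, SE 0.25, edgeR adjusted p = 0.377), and was not called. Myb, a transcription factor of progenitors, was at 615, 625 and 556 CPM against 489 to 609.9 CPM (log2 change 0.11, SE 0.11, edgeR adjusted p = 0.5) and was not called either. Both genes were abundant in all 8 libraries, although Kit was below every PBS library in antibody libraries 2 and 3. Of the 10 identity genes, 4 were called lower (Cd34, Flt3, Cd27 and Adgrg1) and 1 higher, 50% against 24.2% of all genes. The count of 5 became 2 without antibody library 1, 0 without antibody library 2 and 3 without PBS library 5. Cd34, a progenitor surface protein, fell from 634, 657, 651, 686 and 825 CPM in the PBS libraries to 234, 358 and 566 CPM with LPS and antibody (log2 change -0.84, SE 0.22, edgeR adjusted p = 0.0166), with every antibody library below every PBS library. That call was lost without antibody library 1 (adjusted p = 0.0554) or antibody library 2 (adjusted p = 0.0791). The gene that was called higher was Ly6a, which encodes the surface antigen Sca-1 and is described with the genes that split the antibody libraries.

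The greatest increases included the metallothionein gene Mt1, the interferon-inducible gene Ifitm1, the asparagine synthetase gene Asns and the lactate dehydrogenase gene Ldha. Among called genes in the upper part of expression whose groups did not overlap, the 12 that increased most were Mt1, Ifitm1, Clec5a, Asns, Ccne1, Emilin2, Gda, Glrx5, Csf2rb, Ldha, Gbp3 and Gm17300. Mt1 (chr8:94178883-94180327 in the RefSeq annotation of GRCm38.p6), which encodes a metal-binding metallothionein, was at 175, 139 and 88.4 CPM in antibody libraries 1, 2 and 3 and at 44.1, 24.5, 26.7, 26.3 and 7.79 CPM in PBS libraries 1 to 5 (log2 change 2.37, SE 0.46, edgeR adjusted p = 0.00501). Ifitm1 (chr7:140967429-140969827), a membrane protein that restricts virus entry, was at 662, 777 and 511 CPM against 225, 185, 138, 97.9 and 238 CPM (log2 change 1.88, SE 0.33, edgeR adjusted p = 0.00403). For both genes the lowest antibody library, number 3, was still at about 2 times the highest PBS library. Ldha, the lactate dehydrogenase subunit that closes glycolysis, was at 1579.9, 1901 and 1511 CPM against 978, 561, 540.4, 726 and 572 CPM (log2 change 1.30, SE 0.20, edgeR adjusted p = 0.00353). Slc16a3, a lactate exporter, was one of the 6 genes with the smallest p-values, and it was at 29.1, 36.2 and 18.7 CPM against 8.86, 8.97, 10.6, 9.52 and 5.9 CPM (log2 change 1.67, SE 0.21, edgeR adjusted p = 0.00297). The order of the antibody libraries was not the same for these genes: library 1 led for Mt1, and library 2 for Ifitm1, Ldha and Slc16a3. Emilin2, an extracellular matrix protein, was at 131, 228 and 132 CPM against 40.8 to 73.3 CPM with PBS. Glrx5, a mitochondrial glutaredoxin, was at 144, 81.5 and 52.2 CPM against 29.3 to 45.5 CPM. Csf2rb, the signalling chain shared by the receptors for GM-CSF and related cytokines, was at 319.9 ± 101 CPM (SD, n = 3) with LPS and antibody against 125 ± 16.6 CPM (SD, n = 5) with PBS (log2 change 1.36, SE 0.29, edgeR adjusted p = 0.00679). Cebpb, a transcription factor of emergency myelopoiesis, was at 26.5, 26.7 and 12.3 CPM against 3.51 to 9.52 CPM with PBS and also rose (log2 change 1.65, SE 0.33, edgeR adjusted p = 0.00543). Of the 14 myeloid transcription factors tested, 1 was called higher by edgeR, which was Cebpb, and 2 lower, Maf, a factor of macrophages, among them. That share of 21.4% was near the 24.2% of all genes called. DESeq2 and voom called 2 higher, as did edgeR without PBS library 1 or PBS library 4, and without antibody library 2 Cebpb was the only call by edgeR. The call of Maf was lost without antibody library 2, antibody library 3 or PBS library 2 (adjusted p 0.0617 to 0.11).

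The families of Mt1 and Ifitm1 moved in part with them. Of 9 genes of metallothioneins and zinc handling, 4 (44.4%) were called higher (Mt1, Mt2, Mtf1 and Slc39a8) and 0 lower. Over all genes tested, 11.7% were called higher. The count of 4 was 2 with upper-quartile scaling, 2 without antibody library 1 or PBS library 5, and 1 without antibody library 2 or PBS library 2. Of 5 Ifitm genes tested, 4 (80%) were called, against 24.2% of all genes. Ifitm1, Ifitm2 and Ifitm3 were higher and Ifitm7 lower. There were 2 calls without antibody library 1 and 2 without antibody library 2. Ifitm3 was at 909.5, 636 and 239 CPM against 280.4, 198, 119, 154 and 167 CPM (log2 change 1.70, SE 0.44, edgeR adjusted p = 0.0155). Its value in library 3 lay within the PBS range, which was not the case for Ifitm1.

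Of the 12, the calls of Clec5a, Gda and Gbp3 depended on single libraries. The call of Clec5a, a myeloid activating receptor, was lost without antibody library 2 (adjusted p = 0.103) or PBS library 2 (adjusted p = 0.058). That of Gda, a guanine deaminase, was lost without antibody library 2, antibody library 3, PBS library 1 or PBS library 2 (adjusted p 0.0503 to 0.22). That of Gbp3, a guanylate-binding GTPase, was lost without antibody library 1, antibody library 2, PBS library 2 or PBS library 5 (adjusted p 0.051 to 0.147). Among the other genes with the smallest p-values (all at adjusted p = 0.00297, so that ties were ordered by the unadjusted p), Lias, a lipoic acid synthase, and Plaa, a ubiquitin-binding protein, rose by a modest amount with very little spread. Lias was at 55.2, 49 and 52.1 CPM against 25.7 to 31.8 CPM (log2 change 0.89, SE 0.11), and Plaa at 121, 134 and 118 CPM against 68.8 to 78.9 CPM (log2 change 0.76, SE 0.10). The other 3 fell, namely Clcf1, a cytokine of the interleukin-6 family, Cpq, a carboxypeptidase, and the noncoding RNA Mirt1. Clcf1 was at 4.69, 5.23 and 6.1 CPM against 20.6, 23.6, 22.2, 19.5 and 27.1 CPM (log2 change -2.08, SE 0.24), and it had the smallest unadjusted p of all genes tested. All 6 kept their calls when any single library was left out.

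**Figure D1:**
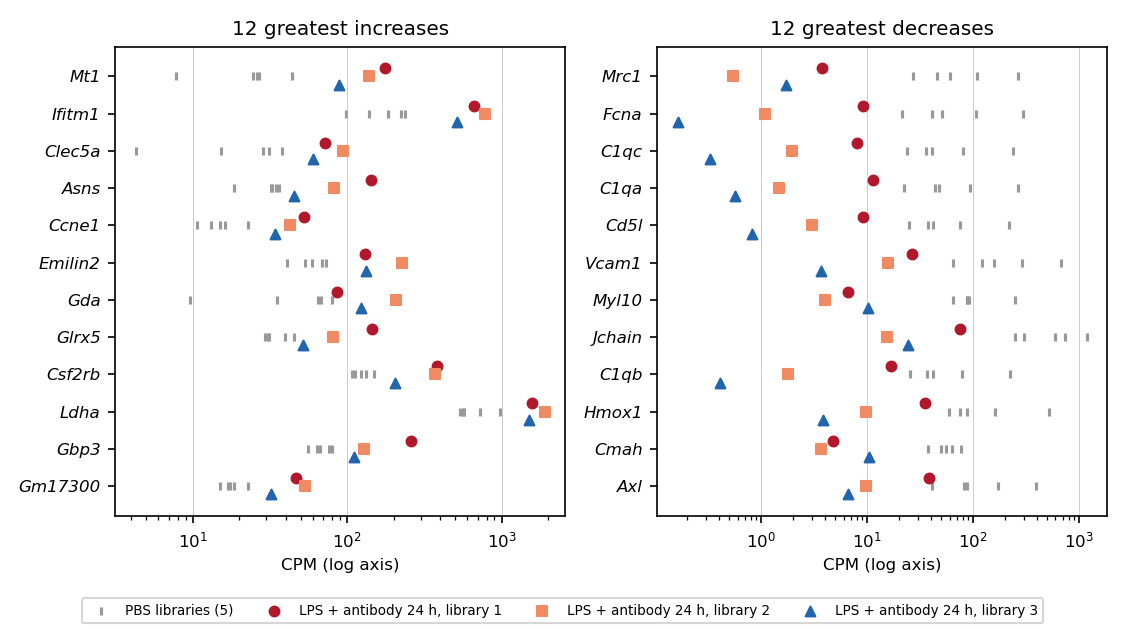
Expression in CPM (log axis) of the 12 genes that increased most and the 12 that decreased most, in each library, with PBS libraries as grey ticks and the 3 antibody libraries as coloured symbols, set slightly apart in height. The rule that chose these genes required the antibody libraries to lie on 1 side of all 5 PBS libraries. PBS library 2 is the highest grey tick for 11 of the 12 decreases (Mrc1 at 266 CPM).

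Genes of ribosome biogenesis rose almost as a whole, and those of amino acid synthesis in large part. Of 25 ribosome biogenesis factors, 24 (96%) were called higher, against 11.7% of all genes, and 0 lower. Their median log2 change was 0.69 (all genes, -0.001). The groups did not overlap for 21 of them (all genes, 31%). Ncl, which encodes nucleolin, was at 2489, 3324 and 2485 CPM against 1834, 1369.9, 1351, 1580.0 and 1579 CPM (log2 change 0.84, SE 0.14, edgeR adjusted p = 0.00397). Rrp12, an export factor of ribosomal subunits, was at 111, 162 and 87.6 CPM against 78, 45, 50.4, 62.1 and 60.9 CPM (log2 change 1.02, SE 0.18, edgeR adjusted p = 0.00433). Each antibody library was above every PBS library for both genes, and library 2 was the highest. The gene of this list that was not called was Myc, the transcription factor that drives ribosome production, at 392, 515 and 228 CPM against 326, 279, 251, 262 and 261 CPM (log2 change 0.46, SE 0.20, edgeR adjusted p = 0.102). Its value in library 3 was below every PBS library, whereas libraries 1 and 2 were above them. Without antibody library 2 the count for the list was 11.

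The transcription factor ATF4 induces amino acid synthesis and uptake when amino acids are short. Of 21 genes of this response tested, 14 (66.7%) were called higher, against 11.7% of all genes, and 0 lower (median log2 change 0.67). The count was 11 with upper-quartile scaling and 5 without antibody library 2. Asns, asparagine synthetase, was at 144, 82.2 and 45.1 CPM against 36.4, 18.4, 32.1, 32.9 and 34.5 CPM (log2 change 1.55, SE 0.35, edgeR adjusted p = 0.00863). Psat1, an enzyme of serine synthesis, was at 251, 304 and 293 CPM against 182, 115, 132, 159.7 and 135 CPM (log2 change 0.97, SE 0.15, edgeR adjusted p = 0.00355). Mthfd2, a mitochondrial folate enzyme, was at 85.8, 97.7 and 64.6 CPM against 48.4, 34.6, 24.9, 35.6 and 29.8 CPM (log2 change 1.25, SE 0.22, edgeR adjusted p = 0.00403). Slc7a5, an importer of large neutral amino acids, was at 228, 345 and 194 CPM against 157, 94.7, 108, 138 and 112 CPM (log2 change 1.07, SE 0.17, edgeR adjusted p = 0.00355). These genes separated the groups in every library, which the rule for the greatest increases required of Asns. Asns was 3.18 times as high in library 1 as in library 3, while Psat1 stayed within a narrow range. The stress genes Ddit3 (30.7, 11.9 and 8.54 CPM against 9.58 to 13.7 CPM) and Trib3 (3.85, 1.48 and 0.894 CPM against 1 to 3.37 CPM) were not called (edgeR adjusted p = 0.263 and 0.879). In both, library 1 was the only antibody library above all PBS libraries.

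The promoter of Asns is shown because it carries the element through which ATF4 is known to act, here searched as TGATGNAA on both strands of the 250 bases before each start site. It spans chr6:7693210-7693459 on the minus strand (RefSeq, GRCm38.p6), is written 5′ to 3′ in the direction of transcription, and has the match in capitals.
Asns: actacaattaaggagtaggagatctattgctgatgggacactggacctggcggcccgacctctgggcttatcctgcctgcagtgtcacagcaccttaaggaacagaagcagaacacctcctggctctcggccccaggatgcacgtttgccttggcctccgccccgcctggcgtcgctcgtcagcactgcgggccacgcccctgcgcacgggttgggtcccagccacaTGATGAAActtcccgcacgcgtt
Of the 22 genes of the list, 19 were found in the RefSeq promoter table, and 5 of these (26.3%) held a match, namely Asns, Chac1, Slc7a11, Pycr1 and Nupr1. Of all 27025 promoters, 3.53% did. Among the 5, Slc7a11, a cystine transporter, was called from a low level (2.59, 4.14 and 2.6 CPM against 0.0702 to 1.95 CPM, log2 change 1.70, SE 0.56, edgeR adjusted p = 0.0374). Pycr1, an enzyme of proline synthesis, was at 6.51, 9.37 and 7.48 CPM against 7.23 to 9.37 CPM (log2 change -0.087, SE 0.19, edgeR adjusted p = 0.771). The call of Slc7a11 was lost without antibody library 1, antibody library 2, PBS library 2 or PBS library 3 (adjusted p 0.053 to 0.148). A match describes the sequence and is not evidence of binding.

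Genes of DNA replication rose by smaller amounts, and genes of mitosis were not called. Of 24 S-phase genes, 11 (45.8%) were called higher, against 11.7% of all genes, and 0 lower (median log2 change 0.39). The count was 6 with upper-quartile scaling, 4 without antibody library 2 and 6 without antibody library 3. Ccne1, the cyclin that starts S phase, had the greatest change, at 52.9, 42.6 and 34.2 CPM against 22.7, 16.3, 13.1, 15 and 10.7 CPM (log2 change 1.47, SE 0.23, edgeR adjusted p = 0.00355). Cdc6, which loads the replicative helicase, was at 109, 103 and 104 CPM against 74.9, 64.4, 58.6, 70.7 and 71.9 CPM (log2 change 0.63, SE 0.12, edgeR adjusted p = 0.00541). The antibody libraries were nearly level for Cdc6 and all above the PBS libraries. Of 24 mitotic genes, 0 were called by edgeR, with 4 at an unadjusted p below 0.05, while DESeq2 called 1 and voom 2, all lower (median log2 change 0.071). Without antibody library 1 a single gene was called higher, without antibody library 3 2 were called lower, and without PBS library 1 a single gene was called lower. Antibody library 3 was above all PBS libraries for 17 of the 24, library 1 for 2 and library 2 for 1. Over all genes tested, the share above all PBS libraries was 31.1% in library 3, 33.5% in library 1 and 33% in library 2. Cdk1, the mitotic kinase, was at 153, 147 and 227 CPM against 133, 131, 154, 173 and 121 CPM (log2 change 0.30, SE 0.19, edgeR adjusted p = 0.268). Of 20 quiescence genes and inhibitors of cyclin-dependent kinases, 3 (15%) were called by edgeR, all lower, near the 12.5% of all genes called lower, and voom called 8, all lower. Btg2, an antiproliferative gene, was at 17.7, 9.53 and 16.3 CPM against 30.7 to 53.7 CPM (log2 change -1.35, SE 0.22, edgeR adjusted p = 0.00357). Foxo3, a transcription factor of quiescence, was at 101, 79.3 and 77.6 CPM against 139 to 166 CPM (log2 change -0.77, SE 0.14, edgeR adjusted p = 0.00433).

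Macrophage genes were prominent among the greatest decreases. The 12 greatest decreases under the same rule were Mrc1, Fcna, C1qc, C1qa, Cd5l, Vcam1, Myl10, Jchain, C1qb, Hmox1, Cmah and Axl. Of 22 macrophage markers 19 (86.4%) were called lower, against 12.5% of all genes, and 0 higher (median log2 change -3.22). Mrc1 (chr2:14229414-14332023), the mannose receptor, was at 3.78, 0.547 and 1.71 CPM against 26.8, 266, 60.0, 46.1 and 108 CPM (log2 change -5.63, SE 1.15, edgeR adjusted p = 0.00597). C1qa, a complement subunit made by macrophages, was at 11.4, 1.48 and 0.569 CPM against 22, 265, 43.9, 48.2 and 94 CPM (log2 change -4.37, SE 1.22, edgeR adjusted p = 0.02). Cd163, the hemoglobin scavenger receptor, was at 15.4, 5.08 and 15 CPM against 32.7, 217, 63.2, 58.8 and 105 CPM (log2 change -3.01, SE 0.62, edgeR adjusted p = 0.00616). The groups did not overlap for any of these, which the rule required of Mrc1 and C1qa. The PBS libraries themselves spread widely, with library 2 the highest and library 1 the lowest. Summed over the list, macrophage transcripts were at 512, 308 and 323 CPM in antibody libraries 1, 2 and 3 and at 891 to 5838 CPM in the PBS libraries. The count of 19 was 4 without antibody library 2, 12 without antibody library 3 and 9 with voom weights. The call of C1qa was lost without antibody library 2 (adjusted p = 0.0907) or antibody library 3 (adjusted p = 0.0563). The calls of Hmox1 and Axl were lost in the same fits. Without antibody library 2 the calls of Fcna, C1qb, C1qc, Cd5l, Vcam1 and Cmah were lost too. Those of Fcna and C1qb were also lost without antibody library 3 or PBS library 2, and that of C1qb without PBS library 5. Mrc1 and Jchain kept their calls when any single library was left out. In bulk RNA, fewer cells of a type and less RNA per cell cannot be told apart, and the part of macrophages carried along in the sort was not tested.

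Many lymphoid priming and stem cell genes fell. Of 20 lymphoid priming genes, 13 (65%) were called lower, against 12.5% of all genes, and 0 higher (median log2 change -1.88). Il7r, the receptor for the lymphoid growth factor interleukin-7, was at 12.7, 5.54 and 6.34 CPM against 32, 57.8, 30.2, 26.9 and 44.4 CPM (log2 change -2.21, SE 0.45, edgeR adjusted p = 0.00577). Notch1, a receptor that directs T cell fate, was at 57.8, 60.7 and 112 CPM against 178, 198, 209, 175 and 228 CPM (log2 change -1.37, SE 0.25, edgeR adjusted p = 0.00454). Dntt (chr19:41029275-41059525), the polymerase of early lymphoid progenitors, was at 57.6, 16.6 and 249 CPM against 709.9, 938, 731, 598 and 936 CPM (log2 change -2.86, SE 0.91, edgeR adjusted p = 0.0342). Each library of the antibody group was below each PBS library for these genes. Of the 3, Dntt differed most within the group, with library 3 the highest, but Dntt was also chosen by its difference between libraries 3 and 1. Jchain, the joining chain of secreted antibodies, was at 74.6, 15.5 and 24.4 CPM against 598, 1179, 304, 250.4 and 746 CPM (log2 change -4.01, SE 0.88, edgeR adjusted p = 0.00759). Myl10, a myosin light chain gene, was at 6.65, 3.98 and 10.2 CPM against 252, 87, 64.4, 90.9 and 87.9 CPM (log2 change -4.07, SE 0.93, edgeR adjusted p = 0.00899). Its call was lost without antibody library 2 (adjusted p = 0.0556). The call of Dntt was lost without antibody library 1, antibody library 2, PBS library 2, PBS library 3 or PBS library 5 (adjusted p 0.0518 to 0.118). Without antibody library 2, 3 of the lymphoid priming genes were called. Of 18 B lymphoid and plasma cell markers 7 (38.9%) were called lower and 0 higher, or 3 without antibody library 2. In sum these markers were at 345, 335 and 278 CPM in the antibody libraries and at 613 to 1623 CPM with PBS. Of 20 T and NK cell markers, 6 (30%) were called lower and 0 higher, or 1 without antibody library 2. The part of mature lymphocytes in the decrease of lymphoid genes was not tested.

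Among 27 stem cell regulators tested, 14 (51.9%) were called lower, against 12.5% of all genes, and 0 higher (median log2 change -1.07). The count was 2 without antibody library 2. Meis1, a homeobox cofactor of stem cells, was at 39.3, 32.4 and 51.6 CPM against 99.5, 100.4, 96.2, 69.4 and 139 CPM (log2 change -1.29, SE 0.24, edgeR adjusted p = 0.00471). Hlf, a transcription factor restricted to the most immature cells, was at 23.2, 26.6 and 62.3 CPM against 160.1, 131, 114, 82.7 and 189 CPM (log2 change -1.86, SE 0.48, edgeR adjusted p = 0.0146). Mecom, which maintains stem cells, was at 5.11, 7.34 and 10.7 CPM against 29.5, 27.6, 21.9, 15.3 and 40.9 CPM (log2 change -1.81, SE 0.45, edgeR adjusted p = 0.0123). For Meis1, Hlf and Mecom antibody library 3 was the highest of its group. The call of Mecom was lost without antibody library 2 (adjusted p = 0.0611), and that of Hlf without antibody library 1 (adjusted p = 0.051) or antibody library 2 (adjusted p = 0.0784). Members that were not called included Gata2, a factor shared by stem, mast and erythroid cells, at 136, 88.8 and 37 CPM against 54.6 to 91.7 CPM (log2 change 0.37, SE 0.44, edgeR adjusted p = 0.558). Lmo2 was at 327, 399 and 408 CPM against 332 to 448 CPM (log2 change -0.053, SE 0.13, edgeR adjusted p = 0.794). Of 16 megakaryocyte and platelet markers, 8 (50%) were called lower and 0 higher. The count was 0 without antibody library 2, 1 without antibody library 3, 4 without antibody library 1 or PBS library 5, 3 without PBS library 2, and 5 without PBS library 1 or PBS library 3. Pf4, a platelet chemokine, was at 6.23, 1.95 and 3.33 CPM against 6.41, 34.6, 39.1, 19.7 and 32.5 CPM (log2 change -2.78, SE 0.77, edgeR adjusted p = 0.0199). Its call was lost without antibody library 2 (adjusted p = 0.0938) or antibody library 3 (adjusted p = 0.0566).

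**Figure D2:**
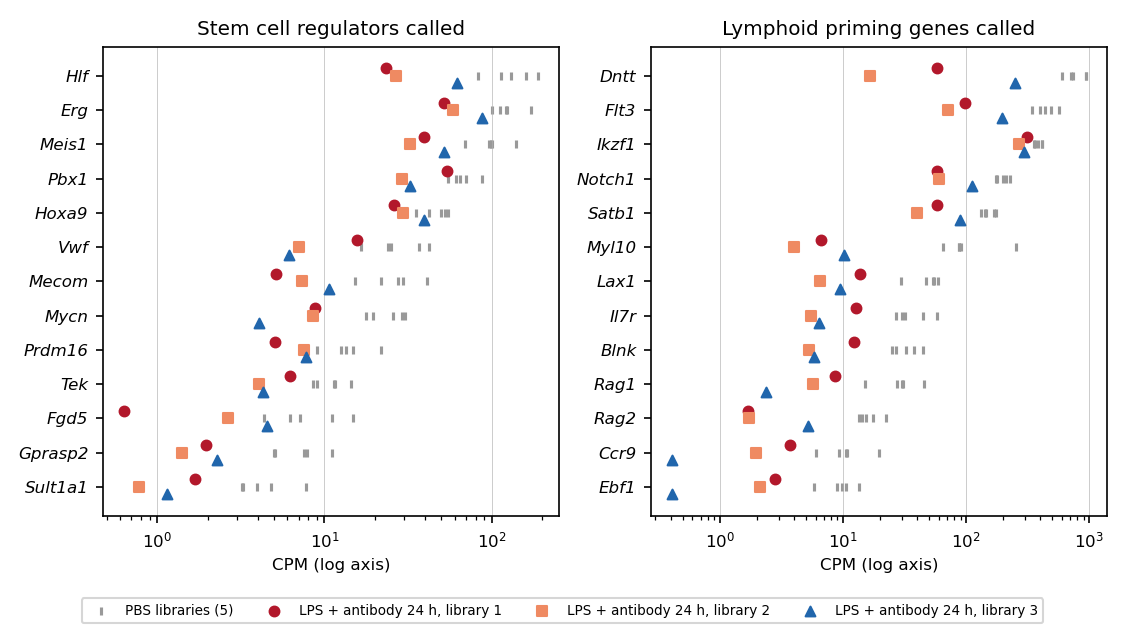
Expression in CPM (log axis) of 13 of the stem cell regulators and the 13 lymphoid priming genes that were called, in each library, with PBS libraries as grey ticks and antibody libraries as coloured symbols. The antibody libraries lie below all PBS libraries for each gene except Hoxa9 and Fgd5, and library 3 is the highest antibody library for Hlf, Flt3 and Dntt. Dntt was also chosen by its difference between libraries 3 and 1.

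The antibody libraries also differed from each other, most of all libraries 1 and 3. Between libraries 1 and 3, 2431 genes differed by at least 2-fold (1597 higher in library 1 and 834 in library 3), between libraries 1 and 2 2064 genes did, and between libraries 2 and 3 1505. The corresponding range was 466 to 1300 genes for pairs of PBS libraries and 887 to 1962 for pairs of LPS libraries without antibody. These are differences between single libraries and carry no test. The genes of the upper part of expression that were highest in library 1 relative to library 3 were Rhag, Cxcl9, Ermap, Saa3, Car1, Gbp4, Aqp1, Atp1b2, Zbp1 and Cfb. Rhag, Ermap, Car1 and Aqp1 are known as erythroid genes, and Cxcl9, Gbp4 and Zbp1 as interferon-inducible ones. Those highest in library 3 relative to library 1 were F13a1, Ccr2, Ptgr1, Nnt, Bphl, Adgrl4, Tspan2, Arl11, Ccl9 and Dntt, of which F13a1 and Ccr2 are known as monocyte genes.

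**Figure D3:**
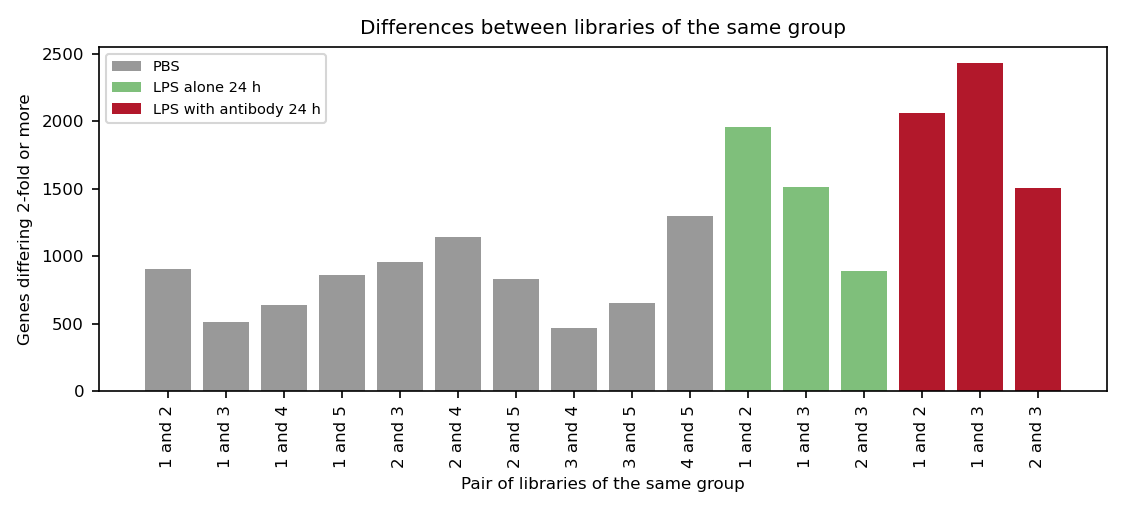
Number of genes that differed by at least 2-fold between each pair of libraries of the same group (bars start at 0), for PBS, for LPS alone and for LPS with antibody. The tallest bar is that of antibody libraries 1 and 3, with 2431 genes, and the tallest PBS bar is at 1300.

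Interferon-inducible genes were split between the antibody libraries. Of 28 type I interferon response genes tested, 0 were called by edgeR, with 5 at an unadjusted p below 0.05, while DESeq2 called 1, higher, and voom 0 (median log2 change 0.74). Antibody library 1 was above every PBS library for all 28, library 2 for 11, and library 3 for 0. Antibody library 3 was below every PBS library for 26 of the 28. Over all genes tested, 33.5% were above all PBS libraries in library 1, and 36.4% were below them in library 3. Isg15, a ubiquitin-like interferon product, was at 172, 35.9 and 4.63 CPM in antibody libraries 1, 2 and 3 and at 22.9, 19.3, 8.95, 14.9 and 14.8 CPM in PBS libraries 1 to 5 (log2 change 2.14, SE 0.91, edgeR adjusted p = 0.0968). Irf7, the transcription factor that amplifies interferon production, was at 453, 84.3 and 7.8 CPM against 63.7, 69.3, 33.6, 45.5 and 38.2 CPM (log2 change 1.86, SE 0.97, edgeR adjusted p = 0.169). Ifit1, an inhibitor of viral translation, was at 68, 11.8 and 2.36 CPM against 13.9, 11.6, 7.74, 10.1 and 9.54 CPM (log2 change 1.38, SE 0.89, edgeR adjusted p = 0.267). For all 3 genes library 1 was far above the PBS range and library 3 below it, and library 2 was above it for Isg15 and Irf7 and within it for Ifit1. Summed over the list, interferon response transcripts were at 4417, 1464 and 647 CPM in antibody libraries 1, 2 and 3 and at 1010 to 1449 CPM with PBS. Without antibody library 3, 6 genes of the list were called, all higher. Without library 1 the log2 change of Isg15 was 0.33 (adjusted p = 0.829), and without library 3 it was 2.72 (adjusted p = 0.0355).

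The guanylate-binding and immunity-related GTPases, which attack vacuoles of intracellular pathogens and respond strongly to interferon-gamma, were split in the same way. The list of these genes also holds Irf1, a transcription factor. Of the 17 genes of the list tested, 1 was called (Gbp3, higher), 16 were above all PBS libraries in antibody library 1, 5 in library 2 and 2 in library 3 (median log2 change 1.28). Over all genes, the shares above all PBS libraries were 33.5%, 33% and 31.1% in libraries 1, 2 and 3. The count of calls was 5 without antibody library 3 and 0 without antibody library 2, PBS library 2 or PBS library 5. Gbp2 was at 914, 41.9 and 24.6 CPM against 34.7, 39.8, 32.2, 30.5 and 46.9 CPM (log2 change 3.15, SE 1.15, edgeR adjusted p = 0.0565). Iigp1 was at 522, 22.9 and 5.77 CPM against 18.2, 22.9, 15.3, 13.4 and 21.6 CPM (log2 change 3.33, SE 1.25, edgeR adjusted p = 0.0645). Library 1 was far above the PBS libraries for both, library 2 lay within their range and library 3 below it. Summed over the list, these transcripts were at 5132, 861 and 581 CPM in antibody libraries 1, 2 and 3 and at 667 to 924 CPM with PBS. Cxcl9 (chr5:92321331-92328079), a chemokine induced by interferon-gamma, was at 435, 18 and 0.407 CPM against 6.16, 7.71, 4.3, 4.51 and 10.7 CPM (log2 change 4.51, SE 1.59, edgeR adjusted p = 0.0497). Its call was lost in 7 of the 8 fits that each left out 1 library, all but that without antibody library 3 (adjusted p 0.0283 to 0.855). Without antibody library 1 its log2 change was 0.48 (adjusted p = 0.855). Cfb, a complement factor, was at 353, 56.5 and 3.41 CPM against 17.8, 2.99, 1.84, 1.75 and 1.89 CPM (log2 change 4.70, SE 1.30, edgeR adjusted p = 0.0196). It lost its call without antibody library 1 (adjusted p = 0.162). Its level in library 3 lay within the PBS range. Cxcl9 and Cfb were chosen by their difference between libraries 1 and 3.

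The promoters of 3 of these genes are shown because they carry the interferon-stimulated response element, searched as GAAA, any 2 bases and GAAA again, on both strands of the 250 bases before the start site. All are from RefSeq, build GRCm38.p6, written 5′ to 3′ in the direction of transcription with matches in capitals. Isg15 lies at chr4:156200819-156201068 on the minus strand, Ifit1 at chr19:34640639-34640888 on the plus strand and Gbp2 at chr3:142620413-142620662 on the plus strand.
Isg15: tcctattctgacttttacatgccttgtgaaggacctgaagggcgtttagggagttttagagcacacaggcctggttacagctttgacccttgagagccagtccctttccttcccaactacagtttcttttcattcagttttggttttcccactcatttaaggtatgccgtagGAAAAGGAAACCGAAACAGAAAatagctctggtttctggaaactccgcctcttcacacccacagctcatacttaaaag
Ifit1: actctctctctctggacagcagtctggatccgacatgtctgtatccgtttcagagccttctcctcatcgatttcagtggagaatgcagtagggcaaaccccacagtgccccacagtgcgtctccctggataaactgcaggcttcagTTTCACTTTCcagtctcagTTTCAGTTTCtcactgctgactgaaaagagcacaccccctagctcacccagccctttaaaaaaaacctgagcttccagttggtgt
Gbp2: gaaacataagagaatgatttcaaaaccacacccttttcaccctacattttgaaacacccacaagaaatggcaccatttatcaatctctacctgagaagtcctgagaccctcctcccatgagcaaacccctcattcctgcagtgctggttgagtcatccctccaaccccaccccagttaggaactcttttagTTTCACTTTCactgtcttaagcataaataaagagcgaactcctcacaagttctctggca
The match in Isg15 is made of 3 overlapping copies on the written strand, whereas Ifit1 holds 2 separate copies and Gbp2 holds 1, all on the opposite strand. Of the 30 interferon response genes 21 were in the promoter table, and 10 of them (47.6%) held the core. Of the 18 genes of the GTPase list 11 were in the table and 9 (81.8%) held it, against 3.04% of all 27025 promoters. The gamma-activated element TTCNNNGAA, its own reverse complement, was found in 7 of the 11 promoters of the GTPase list (63.6%), that of Irf1 among them. It was found in 5 of the 21 interferon response promoters (23.8%) and in 7.18% of all promoters.

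**Figure D4:**
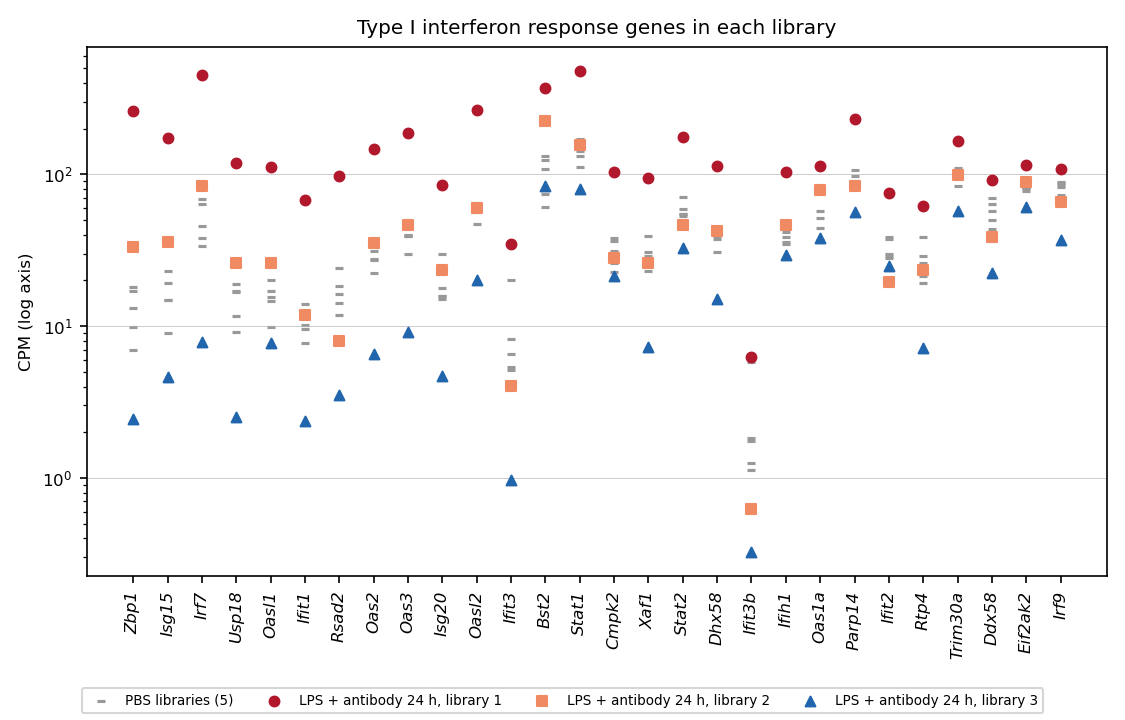
Expression in CPM (log axis) of the 28 type I interferon response genes tested, ordered by the ratio of antibody library 1 to the PBS mean, with PBS libraries as grey bars and antibody libraries as coloured symbols. Library 1 is the highest of the 8 libraries for all 28 genes, while library 3 is below all PBS libraries for 26 of them.

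Erythroid transcripts were split in the same way. Of 19 erythroid markers, antibody library 1 was above all PBS libraries for 15 and library 2 for 9, whereas library 3 was below all of them for 17 and held 5 members at 0 reads. Over all genes, 33.5% were above all PBS libraries in library 1, 33% in library 2, and 36.4% were below them in library 3. Of the 19, 1 was called higher and 0 lower (median log2 change 1.54), against 1 higher and 4 lower without antibody library 1, 0 without antibody library 2 and 2 higher without antibody library 3. Summed erythroid transcripts were at 3714, 1467 and 289 CPM in antibody libraries 1, 2 and 3, against 653 to 1065 CPM with PBS. Car1, the carbonic anhydrase of early erythroid cells, was at 1111, 250.1 and 7.32 CPM against 176, 68.6, 165, 127 and 37.1 CPM (log2 change 1.99, SE 1.28, edgeR adjusted p = 0.268). Klf1, the erythroid master factor, was at 92.6, 27.5 and 1.3 CPM against 16.5, 8.82, 14.2, 14 and 5.47 CPM (log2 change 1.78, SE 1.01, edgeR adjusted p = 0.209). Rhag (chr17:40811099-40844094), a membrane protein of the Rh complex, was at 204, 21 and 0 CPM against 10.3, 2.2, 9.81, 6.51 and 2.53 CPM (log2 change 3.57, SE 1.44, edgeR adjusted p = 0.0816). For these 3 genes libraries 1 and 2 were above all PBS libraries and library 3 below them. Car1 and Rhag were, however, chosen by their difference between libraries 1 and 3. Hbb-bs, an adult globin gene, was at 28.8, 3.2 and 0.0813 CPM against 45.8, 38.3, 38.3, 20.2 and 77.8 CPM (log2 change -2.03, SE 1.02, edgeR adjusted p = 0.155). It was within the PBS range in library 1 and below it in libraries 2 and 3. The gene of this list that was called was Tfrc, the transferrin receptor, which is not particular to red cells, at 492, 719 and 154 CPM against 216, 138, 142, 154 and 111 CPM (log2 change 1.58, SE 0.40, edgeR adjusted p = 0.0135). Library 3 lay within the PBS range, and its call was lost without antibody library 2 (adjusted p = 0.106). Mast cell and basophil markers were also highest in library 1 and lowest in library 3, at 1033, 571 and 137 CPM in sum against 164 to 471 CPM. Cpa3, a mast cell protease, was at 165, 103 and 15.2 CPM against 55.5, 38.1, 22.4, 32.1 and 18.8 CPM (log2 change 1.50, SE 0.63, edgeR adjusted p = 0.0924). Of 8 such markers 0 were called by edgeR, with 2 at an unadjusted p below 0.05, while DESeq2 called 1 higher and voom 0. By edgeR 2 were called higher without antibody library 3 and 1 higher without PBS library 1. The part of these cells in the difference between libraries was not tested.

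Ly6a, Mt2 and antigen presentation genes also differed between libraries 1 and 3. Ly6a was at 529.9, 266 and 58.1 CPM against 85.2, 76.3, 38.3, 32.6 and 76 CPM (log2 change 2.21, SE 0.68, edgeR adjusted p = 0.0298). Library 1 was at 9.12 times library 3, and library 3 lay within the PBS range. Its call was lost without antibody library 1, antibody library 2, PBS library 2, PBS library 3, PBS library 4 or PBS library 5 (adjusted p 0.0514 to 0.171). Mt2, the neighbour of Mt1, was at 111, 50.0 and 3.09 CPM against 12, 4.41, 5.74, 4.57 and 2.04 CPM (log2 change 3.24, SE 0.94, edgeR adjusted p = 0.0239), with library 3 within the PBS range where Mt1 was above it. That call was lost without antibody library 1, antibody library 2, PBS library 2 or PBS library 5 (adjusted p 0.0527 to 0.12). Of 20 genes of MHC class I presentation, 4 (20%) were called higher, against 11.7% of all genes, and 0 lower (median log2 change 0.52). The count of 4 was 0 without antibody library 2, 2 without antibody library 1 or PBS library 3, and 1 without PBS library 2 or 5. Above all PBS libraries were 17 of the 20 in library 1, 15 in library 2 and 6 in library 3. Over all genes tested, the shares above all PBS libraries were 33.5%, 33% and 31.1%. Psmb10, a subunit of the immunoproteasome that prepares peptides for class I, was at 352, 232 and 153 CPM against 141, 124, 94.4, 125 and 98 CPM (log2 change 1.08, SE 0.31, edgeR adjusted p = 0.022). All antibody libraries were above all PBS libraries, and the call was lost without antibody library 1 (adjusted p = 0.117) or antibody library 2 (adjusted p = 0.065). Of 12 class II genes, 2 (16.7%) were called lower, near the 12.5% of all genes called lower, and 0 higher (median log2 change -0.57). The class II count was 5 without antibody library 1 and 1 without antibody library 2. Cd74, the invariant chain of class II, was at 453, 177 and 122 CPM against 281, 493, 235, 340.5 and 469 CPM (log2 change -0.54, SE 0.43, edgeR adjusted p = 0.373), within the PBS range in library 1 only. H2-Ob, a class II chaperone of lymphoid cells, was called and fell to 14.4, 10.9 and 17.7 CPM from 110.1, 77, 71.7, 63.3 and 93.8 CPM (log2 change -2.54, SE 0.48, edgeR adjusted p = 0.00473).

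F13a1 and Ccr2 were chosen for their high level in library 3 relative to library 1, which the whole list of monocyte and dendritic cell markers did not share. F13a1, a clotting factor subunit of monocytes, was at 54.6, 203 and 538 CPM against 179, 329, 421, 600.3 and 91 CPM (log2 change -0.29, SE 0.79, edgeR adjusted p = 0.815). Ccr2, the receptor that guides monocytes out of the marrow, was at 36.3, 169 and 225 CPM against 75.3, 113, 76.2, 106 and 42.6 CPM (log2 change 0.79, SE 0.58, edgeR adjusted p = 0.329). F13a1 stayed within the PBS range in libraries 2 and 3 and was below it in library 1. Ccr2 was above the PBS range in libraries 2 and 3 and below it in library 1. Over the 15 monocyte and dendritic cell markers the median log2 difference from the PBS mean was -0.93, -0.81 and -0.99 in antibody libraries 1, 2 and 3. Each antibody library was below all PBS libraries for 9 of them, and libraries 1, 2 and 3 were above all PBS libraries for 2, 3 and 1. Over all genes tested, the shares below all PBS libraries were 33.6%, 36.8% and 36.4% in libraries 1, 2 and 3. The shares above were 33.5%, 33% and 31.1%. By edgeR 4 of the 15 markers (26.7%) were called lower, against 12.5% of all genes, and 0 higher. DESeq2 called 7 lower and 1 higher, and edgeR without antibody library 2 called 0. Of 14 primary granule genes of immature neutrophils, 2 (14.3%) were called higher, Clec5a and Ctsc, near the 11.7% of all genes called higher. The granule count was 0 without antibody library 2 and 1 without antibody library 1 or any of PBS libraries 2, 3, 4 and 5. Mpo, myeloperoxidase, was at 2830.2, 6171 and 7742 CPM against 4186, 2928, 7886, 10107 and 1938 CPM (log2 change 0.045, SE 0.50, edgeR adjusted p = 0.956), within the PBS range in all 3 antibody libraries. Markers of mature neutrophils were uneven, with sums of 271, 1079 and 193 CPM in the antibody libraries and 93.4 to 1824 CPM with PBS, highest in antibody library 2 and PBS library 2. By edgeR 0 of the 15 were called, with 2 at an unadjusted p below 0.05, while DESeq2 called 1 lower and voom 1 higher and 1 lower (median log2 change -0.41), and 2 were called higher without PBS library 2.

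**Figure D5:**
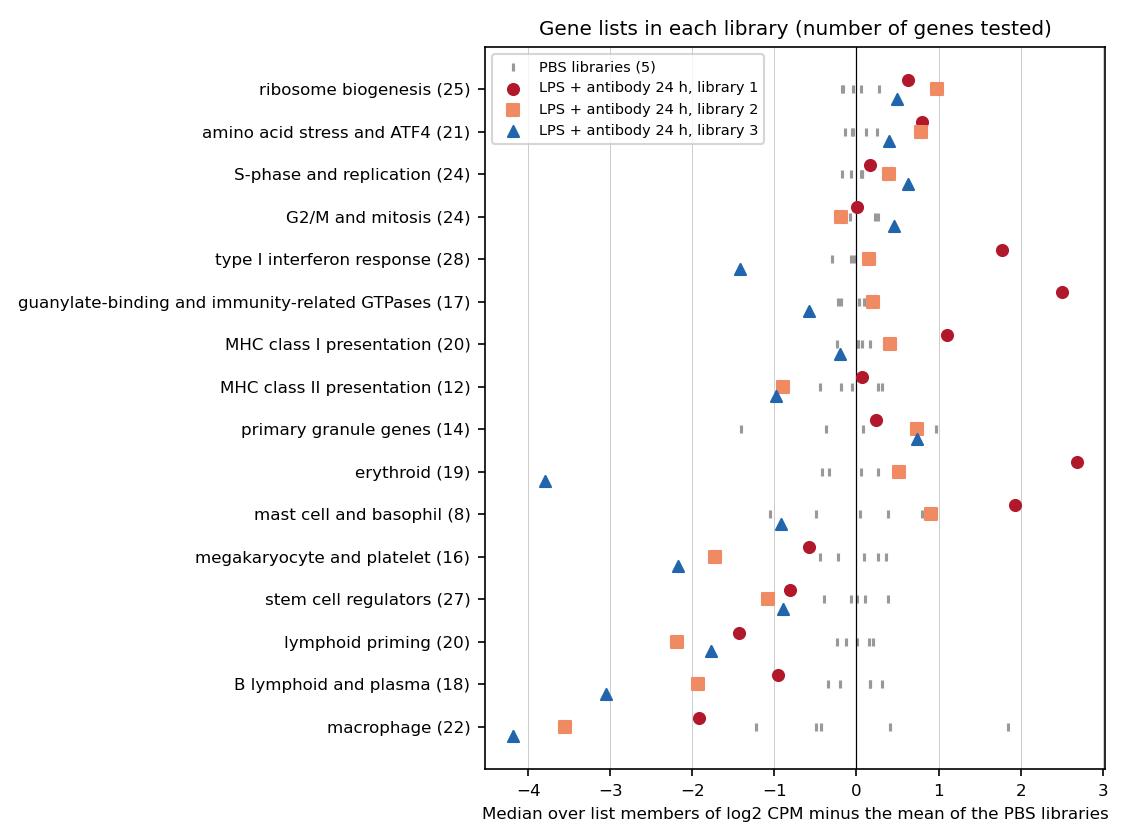
Median over each gene list of the log2 CPM of a library minus the mean of the PBS libraries (number of genes tested in brackets), with PBS libraries as grey ticks and the antibody libraries as coloured symbols, set slightly apart in height. The 3 antibody libraries lie on the same side of all PBS libraries for ribosome biogenesis, amino acid stress, stem cell regulators and lymphoid priming, and on opposite sides for interferon (1.77 in library 1 and -1.42 in library 3) and erythroid genes (2.69 and -3.79).

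Genes of the receptor that the antibody targets, and of the pathway that senses LPS, were called in shares of 17.6% and 17.4%, near the 24.2% of all genes. Il10ra (chr9:45253837-45269149), the ligand-binding chain of IL-10R, was at 47.5, 17.6 and 35 CPM against 37.6, 78.1, 50.0, 53.2 and 59.4 CPM (log2 change -0.74, SE 0.32, edgeR adjusted p = 0.106). Il10rb, the shared chain, was at 42.5, 38.1 and 66.1 CPM against 56.5, 96.3, 62.2, 64.1 and 74.7 CPM (log2 change -0.53, SE 0.21, edgeR adjusted p = 0.0758). Library 2 was below all PBS libraries for both chains, whereas library 3 was below them for Il10ra only and library 1 for Il10rb only. These transcript levels do not check the block of the receptor protein. Stat3 was at 234, 166 and 152 CPM against 177, 164, 166, 153 and 159 CPM (log2 change 0.17, SE 0.16, edgeR adjusted p = 0.472). Socs3, the STAT3-induced feedback inhibitor, was at 17.3, 22.9 and 10.2 CPM against 12.9, 8.82, 11.9, 6.89 and 12.5 CPM (log2 change 0.66, SE 0.34, edgeR adjusted p = 0.169). Of 17 genes of the receptor and of STAT3 signalling, 3 were called, all lower (Jak1, Zfp36 and Cish), against 0 without antibody library 2, 1 without PBS library 5 and 6 by voom. Zfp36, which destabilises cytokine messages, was at 65.3, 37.3 and 80.2 CPM against 132, 163, 118, 160.0 and 126 CPM (log2 change -1.20, SE 0.31, edgeR adjusted p = 0.0146). Of 23 genes of LPS sensing, 1 was called higher and 3 lower. The higher one was Myd88, the adaptor of most Toll-like receptors, at 104, 113 and 88 CPM against 66.1, 53.4, 52.9, 58.6 and 46 CPM (log2 change 0.87, SE 0.16, edgeR adjusted p = 0.00448), with the groups well apart. Tlr4 itself was at 10.4, 13 and 16.3 CPM against 11.9, 26.9, 14.5, 13.1 and 15.6 CPM (log2 change -0.31, SE 0.28, edgeR adjusted p = 0.436). The 3 lower ones were Rel, Nfkbiz and Nfkbie, and the count of 4 fell to 1 without antibody library 2 and to 2 without antibody library 1 or PBS library 5.

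Transcripts of Il6, Tnf and Il10 were scarce in the sorted cells. Il6 was at 1.4, 0.703 and 0 CPM against 0.377, 0.787, 0.287, 0.188 and 0 CPM (log2 change 1.13, SE 1.07, edgeR adjusted p = 0.461). Tnf was at 6.65, 4.3 and 2.6 CPM against 3.83, 2.99, 4.13, 3.38 and 4 CPM (log2 change 0.30, SE 0.36, edgeR adjusted p = 0.568). In antibody libraries 1, 2 and 3 the values of Il6 rested on 20, 9 and 0 reads. Il10 did not pass the filter on low counts and was at 0.56, 0.156 and 0 CPM against 0.251, 0.394, 0.287, 0 and 0.281 CPM. Of 20 cytokine and chemokine genes tested, 2 were called higher (Cxcl9 and Nos2) and 3 lower (Il18, Ccl3 and Il15), a share of 25% against 24.2% of all genes. Some members were abundant, such as the chemokine Ccl9 at 52.4, 61.7 and 228 CPM against 97.7, 95.2, 154, 115 and 109 CPM (log2 change -0.0052, SE 0.44, edgeR adjusted p = 0.994). The list summed to 956, 438 and 548 CPM in antibody libraries 1, 2 and 3 and to 419.7 to 448 CPM with PBS. Il18, a cytokine processed by the inflammasome, was the only one of the 5 whose call held without any single library, at 2.24, 1.33 and 1.46 CPM against 6.34, 18.7, 5.97, 6.33 and 12.4 CPM (log2 change -2.55, SE 0.49, edgeR adjusted p = 0.00473). The count of 5 was 3 without antibody library 1, PBS library 1 or PBS library 4, 2 without PBS library 2, 3 or 5, and 1 without antibody library 2.

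LPS with antibody was then compared directly with LPS alone at 24 h, from which it differs by the antibody. By edgeR's quasi-likelihood test 0 of 14920 genes (0%) were called, with 273 at an unadjusted p below 0.05, and DESeq2 called 1 gene, lower with antibody. The libraries of both groups did not overlap for 470 genes (3.15%). For Mt1, Ncl, Mrc1 and Meis1, all called against PBS, the levels in the LPS libraries overlapped those with antibody: Mt1 was at 194, 60.5 and 69.7 CPM, Ncl at 4339, 3099 and 3176 CPM, Mrc1 at 1.3, 1.24 and 0.447 CPM and Meis1 at 31.9, 50.7 and 40.0 CPM in LPS libraries 1, 2 and 3. The interferon genes of the LPS libraries lay between the extremes of the antibody libraries, with Isg15 at 52, 24.1 and 54.1 CPM and Gbp2 at 29.7, 27.6 and 64 CPM. Of the 124 genes named and tested, 4 did not overlap between LPS with antibody and LPS alone, near the 3.15% of all genes. With antibody, Slc16a3 and Mirt1 were higher and Ifitm7 and Pf4 lower. Slc16a3 was at 29.1, 36.2 and 18.7 CPM with antibody and at 17, 12.8 and 14.7 CPM without (log2 difference 0.92, SE 0.25, unadjusted p = 0.00184). Il10ra was at 47.5, 17.6 and 35 CPM with antibody and at 11.2, 22.2 and 14.1 CPM without (log2 difference 1.07, SE 0.36, unadjusted p = 0.00948). Mirt1 was at 8.05, 5.7 and 8.37 CPM with antibody and at 3.8, 5.15 and 4.98 CPM without (log2 difference 0.66, SE 0.20, unadjusted p = 0.00493). For Slc16a3 and Mirt1 every antibody library was above every LPS library, and for Il10ra the values overlapped. The edgeR adjusted p was 1 for all 3 genes. The LPS libraries and the antibody libraries were each set against the same 5 PBS libraries, so their changes against PBS are not independent.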

How the data were processed

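RNA-seq libraries were made from poly(A) RNA of sorted HSPC. The authors deposited 1 table of read counts per gene symbol for all 17 libraries. Per the submitters' processing notes, HISAT2 2.2.0, Subread, featureCounts 2.1.1, R 4.3.2 and DESeq2 were used with build GRCm38, in roles that the notes do not give. The annotation, strandedness and filters are not given in the sources used here, so genes that overlap, antisense genes and similar family members (Gbp, Ifitm, Ly6, H2) may share reads. Of 35321 symbols, 13321 were at 0 in every library, including all 13 mitochondrially encoded genes.

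Groups were taken from the titles. Genes were tested with edgeR 4.0.16 in R 4.3.3 (quasi-likelihood F test, 1 mean per group, all 17 libraries sharing 1 estimate of spread, TMM factors). The filterByExpr filter (minimum count 10, minimum total 15) left 14920 genes. P-values were adjusted by Benjamini and Hochberg over all of them, and a gene was called at an adjusted p below 0.05. The direct comparison with LPS alone used the same fit. CPM values are scaled by TMM, and log2 values of single libraries carry a prior count of 2. The SE of a log2 change is its size divided by the square root of F. Alternatives used DESeq2 1.42.0, limma 3.58.1 (voom), other scaling factors and filters, a replicate block, and the omission of each library in turn. Total counts were 11879018 to 15597602 in the 8 libraries compared. Counting error was not separated from the spread between libraries. It adds to that spread for genes with few reads, such as Fcna with 131, 14 and 2 in antibody libraries 1, 2 and 3.

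Genes named were the 12 with the largest increase and the 12 with the largest decrease (called, not overlapping, mean expression at or above the median), the 6 with the smallest p-values, the 10 that most differed in each direction between antibody libraries 1 and 3, and members of 29 gene lists, of which a few are counted but not reported here by name. The comparison, these lists and the members described were chosen with earlier results of these data known. Promoters (250 bases before the start) came from RefSeq, GRCm38.p6.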

Additional observations from a re-analysis of the deposited data

Results flagged for a closer look

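For each gene named, the 5 PBS libraries were examined for a value far from the others, a test that flags about 1 group in 20 by chance. Of 125 genes, 17 had such a value. PBS library 2 was far above the other PBS libraries for Btg2 (53.7 CPM), C1qb (225 CPM), C1qc (239.7 CPM), Cd5l (219 CPM), Hmox1 (521 CPM), Nupr1 (3.38 CPM) and Tlr4 (26.9 CPM), and far below them for Asns (18.4 CPM). The genes C1qb, C1qc, Cd5l and Hmox1 belong to the macrophage list, whose summed level in that library was 5838 CPM. PBS library 1 was far above the others for Cfb (17.8 CPM), Gbp4 (45.7 CPM), Myl10 (252 CPM), Nos2 (0.377 CPM) and Saa3 (31.1 CPM), and far below them for Tspan2 (28.5 CPM). Of these, Cfb, Gbp4 and Saa3 were also among the genes that most exceeded library 3 in antibody library 1. PBS library 5 was far above the others for Adgrl4 (525 CPM), Cd34 (825 CPM) and Foxo3 (166 CPM). The groups of 3 libraries were too small for this test. Explanations of these values were not tested.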

How the results depend on the processing

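The count of 3605 genes stayed within 1.5 times its value with DESeq2's size factors, upper-quartile factors, no filter, DESeq2, voom or a fit of the compared groups alone, but with upper-quartile factors 1120 were higher. It was 1234 genes (161 higher, 1073 lower) with a 2-fold minimum and 1877 genes (972 higher, 905 lower) among genes at or above the median mean expression, which tests fewer genes. Leaving out 1 library gave 877 to 3420 genes (413 to 1840 higher, 464 to 1802 lower), fewest without antibody library 2, and the cause was not tested. Whether the replicate numbers of the titles mark a pairing cannot be told from so few libraries. Deviations of same-numbered antibody and PBS libraries correlated at 0.084, -0.087 and 0.065, and of antibody and LPS libraries at -0.047, -0.043 and -0.36. Correlations of differently numbered libraries ranged from -0.23 to 0.31. Blocking on that number left 1721 genes (715 higher, 1006 lower), and a replicate block in libraries 1 to 3 of both groups left 0 (0 higher, 0 lower), with 3823 at an unadjusted p below 0.05 by edgeR, whereas those libraries without the block, a choice made after seeing the data, gave 1393 genes (463 higher, 930 lower). Against LPS alone DESeq2 called 1 gene, lower, and every other alternative 0, the block included. Between antibody libraries 1 and 3, 3673 genes differed by 2-fold or more without a filter, and between libraries 2 and 3 1505.

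Of 124 genes named and tested, 80 were called, and 35 of these kept the call without antibody library 2, 57 without antibody library 1 and 68 without antibody library 3. The sign of the log2 change turned only for genes that were not called. It became without a filter 0.021 (Ccl9), in a fit of the compared groups alone 0.0091 (Ccl9), with voom -0.54 (Ermap), -1.30 (Gbp4), -0.16 (Nnt), -0.22 (Ptgr1), 0.031 (Pycr1) and -0.16 (Rhag), with the replicate block -0.53 (Gbp4), -0.15 (Nnt) and -0.067 (Ptgr1). It became with the replicate block on libraries 1 to 3 -0.96 (Gbp4), -0.24 (Nnt) and -0.24 (Ptgr1), among the more abundant genes -0.067 (Mpo), -0.0014 (Myb) and -0.11 (Nnt), with upper-quartile factors -0.053 (Mpo) and -0.090 (Nnt). Over the fits that left out 1 library, it ranged from -0.97 to 0.34 (Ccl9), -0.17 to 0.91 (Ddit3), -1.31 to 0.19 (F13a1), -0.10 to 0.77 (Gata2), -0.14 to 3.74 (Gbp2), -2.53 to 1.99 (Gbp4), -0.57 to 1.95 (Ifit1), -0.34 to 3.94 (Iigp1), and from -0.12 to 2.46 (Irf7), -0.11 to 0.045 (Lmo2), -0.24 to 0.40 (Mpo), -0.70 to 0.41 (Nnt), -1.05 to 0.53 (Ptgr1), -0.24 to 0.031 (Pycr1), -0.039 to 0.32 (Stat3), -0.086 to 0.61 (Tnf), -0.93 to 0.26 (Trib3). The cause of these turns was not tested. Counts limit genes near 1 CPM, such as Il6, Il10, Nos2 and Trib3.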
